A study of Mus musculus with 32 samples.

Results

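Per2, Rora, Bhlhe41 and Hlf are 4 genes of the mammalian circadian clock, and they were taken as every array probe named with these symbols. The platform annotation gave them 8 of the 20794 probes, and they are 4 of the 9030 named genes. Probes 527 and 2333 belong to Per2, probes 17775 and 18811 to Hlf, probes 1024, 19073 and 19953 to Rora, and probe 2073 to Bhlhe41. The eye values of these genes were in view when they were chosen, so the eye values below are a description and carry no test. Brain and heart values played no part in that choice and were tested.

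The study used cDNA arrays with 2 colours to compare organs of sighted C3H males with those of C3H males labelled C3H.pde6b-, which carry an inherited loss of rods. The series text calls the sighted line the C3H seh mutant line, and names 6 male animals. On every array, 1 channel carried sighted RNA and the other a pool made from the same organ of 6 control males. The arrays comprised 12 of eye, 12 of brain and 8 of heart, with the dyes exchanged between arrays of odd and even number. The pool is 1 control sample per organ, so the spread between control animals is not seen. One set of control mice gave both the brain and the heart pool, and other mice gave the eye pool. The sources used here do not give the age of the mice or the hour at which organs were taken. Clock gene levels vary with the hour, and its part in every value below was not tested.

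The clock is a feedback loop of transcription. Clock or its relative Npas2 pairs with Arntl at E-box sequences and switches on the Per and Cry genes, whose proteins return to the nucleus and repress that pair. Rora, an orphan nuclear receptor, activates Arntl through ROR elements, which the Nr1d receptors repress. Bhlhe41, also called Dec2, is a repressor that binds E-boxes itself. Hlf belongs with Dbp and Tef to the PAR bZIP factors, which bind D-box sequences and pass the rhythm on to output genes. In the eye, clocks run in the retina, where rods, cones and inner neurons differ in their clock gene content, and C3H mice are among the laboratory strains that make melatonin.

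The clock is read and written through promoter sequences, so the windows of a higher and a lower member are shown. They are the 250 bases before the annotated start, 5′ to 3′ on the gene's strand, from a table of RefSeq promoter windows, build GRCm38.p6, which gave a window for 3 of the 4 members and is not complete. Bhlhe41 lies at chr6:145865421-145865670 and Hlf at chr11:90390918-90391167, both on the minus strand. Capitals mark an E-box.
Bhlhe41: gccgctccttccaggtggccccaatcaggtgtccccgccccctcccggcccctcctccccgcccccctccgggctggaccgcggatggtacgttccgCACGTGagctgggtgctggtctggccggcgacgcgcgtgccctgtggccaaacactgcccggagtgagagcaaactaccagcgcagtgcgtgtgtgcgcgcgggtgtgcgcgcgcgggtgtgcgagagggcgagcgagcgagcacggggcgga
Hlf: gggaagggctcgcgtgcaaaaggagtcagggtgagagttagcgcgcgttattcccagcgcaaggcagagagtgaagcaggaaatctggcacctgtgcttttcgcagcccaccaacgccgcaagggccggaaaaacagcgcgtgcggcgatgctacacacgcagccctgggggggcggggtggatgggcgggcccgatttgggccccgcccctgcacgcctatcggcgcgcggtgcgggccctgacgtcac
The Bhlhe41 window held 1 E-box, CACGTG, starting 153 bases before the start. An E-box was present in 6.02% of 32851 promoter windows of the same length. The E-box variant CACGTT (3.85% of windows), the D-box TTATGTAA or TTACGTAA (0.931%) and the ROR element core AGGTCA (14% of windows) were searched on both strands and had no match in the Bhlhe41, Hlf or Rora window, and the E-box had none in Hlf or Rora. The Rora window precedes a start that lies inside the full annotated span of that gene, unlike those of Bhlhe41 and Hlf. No array value bears on the use of these sequences.

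The measured value is a log2 ratio within an array, so the data give differences between sighted and control RNA but no expression level, and neither the order of the genes by level nor the identity of an organ by its markers can be read from them. The sign was set so that a positive value is higher in sighted RNA. It is likely, not stated: the median of 5 rod genes ran from 4.98 to 5.74 in the deposited values of eye arrays whose sighted RNA carried Cy5 and from -5.42 to -4.06 on those where it carried Cy3. A replicate is the mean of 2 arrays of consecutive number and opposite dye, so that eye and brain had 6 replicates each and heart had 4. Which arrays come from 1 animal is not labelled, so p-values measure the spread between these replicates, which may be partly technical. In every count and share over all genes, a probe without a gene symbol counts as a gene of its own. The median SD over all genes was 0.198 in eye, 0.201 in brain and 0.34 in heart. Heart array 7 lacked 61.6% of its values, against at most 12.0% on the other heart arrays. Brain array 3, part of brain replicate 2, is labelled Cy5 in each channel, and its sighted RNA was taken to be the Cy5 one.

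In the eye, Per2 and Hlf were lower and Rora and Bhlhe41 were higher in sighted than in control RNA. Per2, a repressor of the loop whose transcription also responds to light in the brain's central clock, had replicate log2 ratios from -1.12 to -0.45 with a median of -0.52. All 6 replicates were below 0, and replicate 2 lay lowest. Its mean was -0.64 ± 0.26 (SD, n = 6), 1.56-fold lower in sighted eyes. Hlf had ratios from -0.77 to -0.50 with a median of -0.58. Again all 6 replicates were below 0, and they were the least spread of the 4 genes. The Hlf mean was -0.61 ± 0.094 (SD, n = 6), 1.52-fold lower.

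Rora had eye ratios from 0.57 to 0.89 with a median of 0.67. Every replicate was above 0, and the mean was 0.71 ± 0.13 (SD, n = 6), 1.63-fold higher in sighted eyes. Bhlhe41 ranged from 0.19 to 0.88 with a median of 0.60. Its 6 replicates were all above 0, with replicate 2 lowest and the other 5 at 0.53 or more. The Bhlhe41 mean was 0.59 ± 0.23 (SD, n = 6), 1.51-fold higher. Fewer cells of a type and less RNA per cell cannot be told apart in whole organs. By absolute size these are moderate differences for this organ: 5.32% of the 15874 genes tested in eye had a larger one than Rora, 6.62% than Per2, 7.40% than Hlf and 7.85% than Bhlhe41. Limma, which fits all genes together and moderates their variances, called 26.8% of all genes in eye at a Benjamini-Hochberg adjusted p of 0.05, 15.9% higher and 11% lower. The 4 genes were picked from among these calls, so nothing is read from their own.

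**Figure D1:**
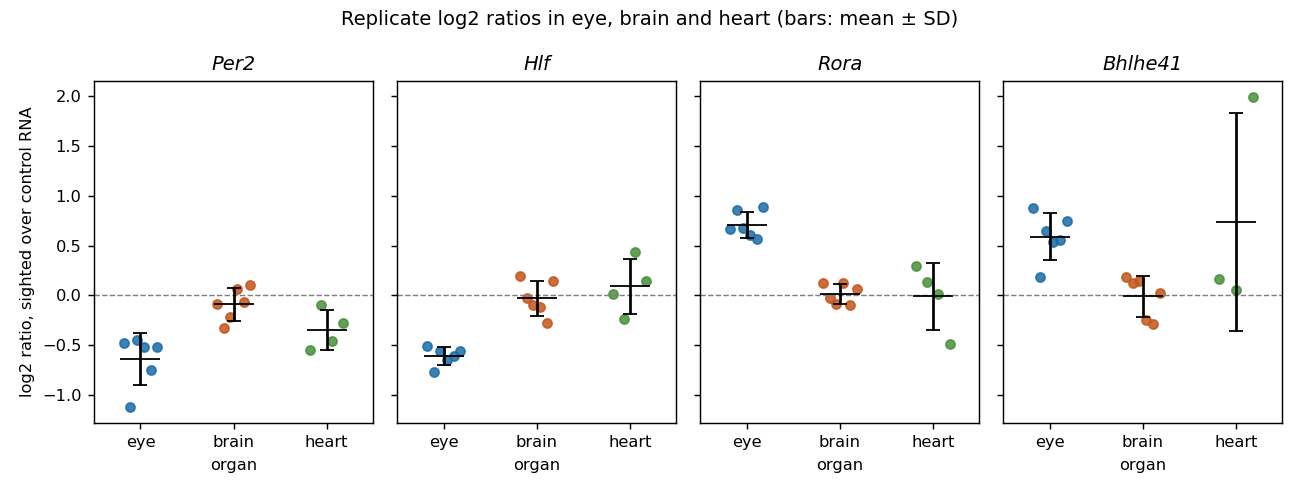
Log2 ratio of sighted over control RNA (y axis) of Per2, Hlf, Rora and Bhlhe41 in eye, brain and heart (x axis); each point is 1 replicate and the bars are the mean ± SD. In eye the Per2 and Hlf points lie below 0 and those of Rora and Bhlhe41 above 0, brain points lie on both sides of 0, and 1 heart point of Bhlhe41 is at 2.00.

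The size of the eye differences depended on which RNA carried which dye, but their sign did not. Rora averaged 1.12 over the 6 arrays with sighted RNA in Cy5 and 0.30 over the 6 with sighted RNA in Cy3, and was above 0 on 12 of 12. Bhlhe41 averaged 1.00 and 0.18 in the same order and was above 0 on 11 of 12 arrays, the exception being array 4 at -0.46. Per2 averaged -0.43 and -0.84 and was below 0 on 12 of 12 arrays. Hlf averaged -0.40 and -0.81 and was also below 0 on 12 of 12. All 4 genes thus read higher with sighted RNA in Cy5. Taken as 0.5 times the difference between the orientations, this dye component was 0.41 for Rora and Bhlhe41 and 0.21 for Per2 and Hlf, and it cancels in a replicate. Eye array medians lay between -0.061 and 0.53. With every array centred on its median the eye means were -0.67 for Per2, -0.64 for Hlf, 0.68 for Rora and 0.56 for Bhlhe41.

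**Figure D2:**
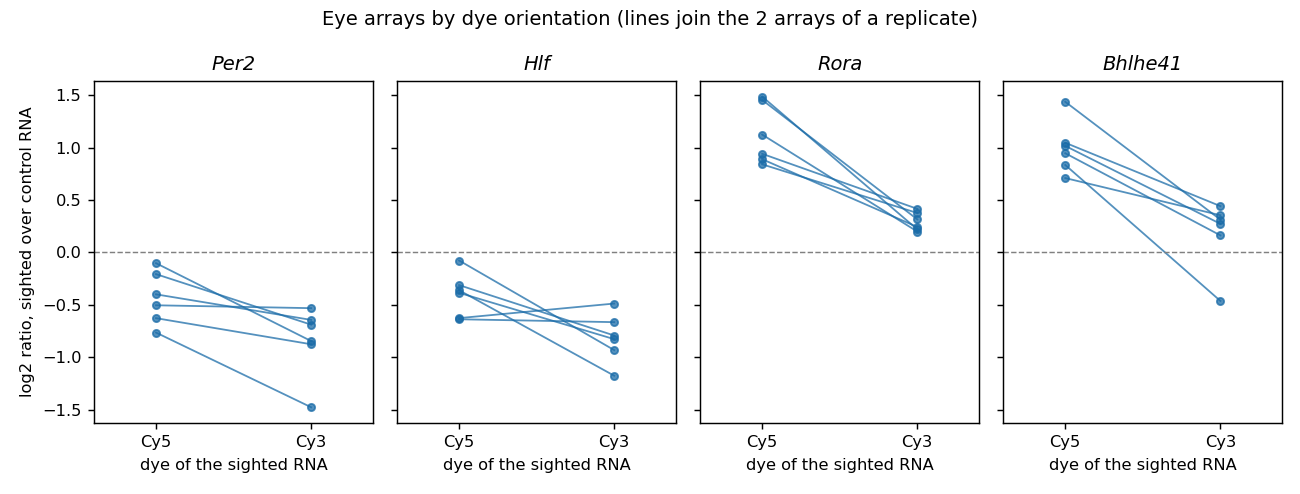
Log2 ratio of sighted over control RNA on single eye arrays (y axis) by the dye of the sighted RNA (x axis), with a line for the 2 arrays of a replicate. Values are lower with sighted RNA in Cy3 in most replicates, and apart from 1 Bhlhe41 array at -0.46 every array keeps the sign of its gene's mean.

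Probes of the same gene had the same sign in eye but not the same size. Per2 read -0.84 ± 0.40 on probe 527 and -0.44 ± 0.37 on probe 2333 (SD, n = 6 each). Probe 527 was below 0 on 12 of 12 arrays and probe 2333 on 11. The probes of Hlf were close together, at -0.59 ± 0.13 for probe 17775 and -0.62 ± 0.20 for probe 18811 (SD, n = 6 each). Rora differed most between its probes. Probe 1024 had 1.00 ± 0.18, probe 19073 had 0.64 ± 0.12 and probe 19953 had 0.48 ± 0.54 (SD, n = 6 each). The last of these read 1.23 with sighted RNA in Cy5 and -0.27 with sighted RNA in Cy3, so its sign turned with the dye, while probes 1024 and 19073 were above 0 on 12 and 11 of 12 arrays. Bhlhe41 had a single probe and no such check. Over all probes limma called 27% in eye, and the members' eye probes carry no test. In brain limma called 0 of the 8 member probes, with 0 at an unadjusted p under 0.05, and 0.00516% of all probes. In heart it called 0 of the 7 member probes it could test and 0% of all probes, and 1 member probe, Per2 probe 527, had an unadjusted limma p under 0.05, at 0.0393.

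**Figure D3:**
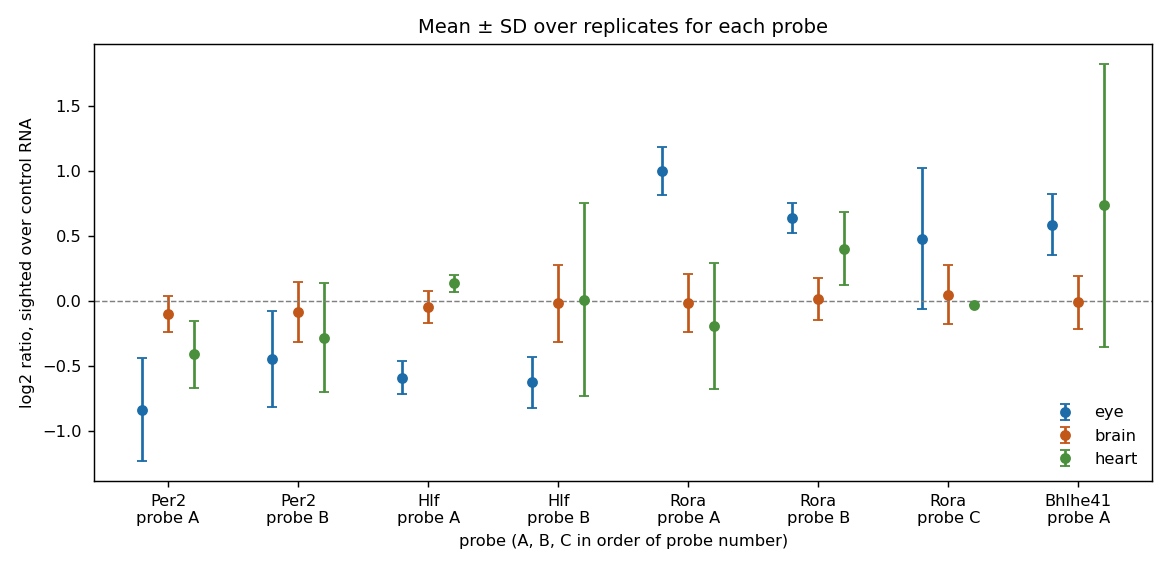
Mean log2 ratio of sighted over control RNA (y axis) for each of the 8 probes (x axis; letters A to C follow the probe numbers, so probe C of Rora is 19953) in eye, brain and heart, with bars for the SD over replicates; probe C has a single heart replicate and no bar. Both Per2 and both Hlf probes are below 0 in eye and all 3 Rora probes above 0, with probe C of Rora the most spread at 0.48 ± 0.54.

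In the brain none of the 4 genes differed detectably between sighted and control RNA. Per2 had replicate ratios from -0.33 to 0.10 with a median of -0.078. Hlf ran from -0.28 to 0.20, Rora from -0.10 to 0.13 and Bhlhe41 from -0.28 to 0.18, each with replicates on both sides of 0. The means were -0.089 ± 0.16 for Per2, -0.030 ± 0.18 for Hlf, 0.019 ± 0.10 for Rora and -0.0098 ± 0.21 for Bhlhe41 (SD, n = 6 each). Limma called 0 of the 4 genes, with adjusted p between 0.959 and 0.991, and 0 of them had an unadjusted p under 0.05. It called 0.00621% of the 16112 genes tested in brain, a single gene, with 657 at an unadjusted p under 0.05. The 95% intervals were -0.25 to 0.076 for Per2, -0.20 to 0.14 for Hlf, -0.12 to 0.15 for Rora and -0.20 to 0.18 for Bhlhe41. None of them reaches the eye mean of its gene, and for each of the 4 genes the eye and brain replicates did not overlap. Eye and brain replicates also did not overlap for 11.2% of the 15499 genes tested in both organs. Since the members were chosen on their eye values, nothing is read from their count or from intervals set beside their eye means. The narrowest gap was that of Bhlhe41, with a lowest eye replicate of 0.186 and a highest brain replicate of 0.182. Eye minus brain came to -0.55 for Per2, -0.58 for Hlf, 0.69 for Rora and 0.60 for Bhlhe41. These differences contain the eye values that chose the genes and have no test.

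In the heart Per2 was below 0 throughout but did not pass the test, and the other members scattered. Per2 had -0.55, -0.10, -0.46 and -0.28 in heart replicates 1 to 4. All 4 replicates and 8 of 8 arrays were below 0, and replicates 1 and 3 lay within the range of the eye replicates. The mean was -0.35 ± 0.20 (SD, n = 4), with a 95% interval of -0.69 to 0.0038. Its limma p was 0.0519 unadjusted and 0.57 adjusted. Probe 527 had -0.41 ± 0.26 and was below 0 on 8 of 8 heart arrays, and probe 2333 had -0.28 ± 0.42 (SD, n = 4 each) and was below 0 on 6 of 8. Limma called 0 of the 4 members in heart, with 0 at an unadjusted p under 0.05. It called 0% of the 12755 genes tested there, with 1042 at an unadjusted p under 0.05. On simulated data the heart fit recovered 2% of genes changed by a log2 ratio of 0.5 and 18% of those changed by 1. The brain fit recovered 58% and 89%.

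Hlf had 0.012, -0.23, 0.44 and 0.14 in the heart replicates, a mean of 0.091 ± 0.28 (SD, n = 4) and a limma adjusted p of 0.840. Its replicates lay on both sides of 0 and above every eye replicate. Eye and heart replicates did not overlap for 2 of the 4 members, Hlf and Rora, nor for 16.8% of the 12547 genes tested in both, and for the same reason nothing is read from this count. Rora had 0.30, 0.14, 0.012 and -0.48, a mean of -0.0086 ± 0.34 (SD, n = 4) and a limma adjusted p of 0.988. Its heart replicates also lay on both sides of 0 and all below those of the eye. Behind the Rora mean its probes disagreed, with probe 1024 at -0.19 ± 0.49 (SD, n = 4) and probe 19073 at 0.40 ± 0.28 (SD, n = 3), while probe 19953 was measured on 4 of 8 arrays. Bhlhe41 had 0.16, 0.056 and 2.00 in replicates 1 to 3 and no value in replicate 4, because array 7 lacked its probe while array 8 read -0.35. The mean of 0.74 ± 1.09 (SD, n = 3) rested on replicate 3 and was 0.11 without it, and it did not pass limma (adjusted p = 0.584). The 95% intervals in heart were -0.30 to 0.48 for Hlf, -0.43 to 0.41 for Rora and -0.36 to 1.84 for Bhlhe41. Those of Bhlhe41 and Per2 include the eye mean of the same gene, and those of Rora and Hlf do not. The eye means belong to the values that chose the genes, so nothing is read from this.

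The difference between brain and heart contains no eye value and was tested for each member in 1 limma fit of all organs. The eye replicates enter the shared spread of that fit, and so its p-values. Brain minus heart was 0.26 for Per2, 0.027 for Rora, -0.75 for Bhlhe41 and -0.12 for Hlf. None of the 4 passed, with limma adjusted p of 0.307, 0.929, 0.178 and 0.613, while this fit called 2.86% of 12492 genes. Unadjusted, 1 of the 4, Bhlhe41, had a limma p under 0.05, at 0.0289, against 2666 of all genes, and its difference was -0.12 without heart replicate 3. A t test built from the separate limma fits of brain and heart, with each organ's own spread, called 0% of genes. Its adjusted p for the members lay between 0.611 and 0.967, and its unadjusted p for Bhlhe41 was 0.1435. On simulated data it recovered 4% of genes changed by a log2 ratio of 0.5 and 38% of those changed by 1. Brain and heart share their control animals, which neither test models.

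The rest of the clock list places the 4 genes among their partners. Of 22 core clock genes on the list, 15 had a probe and all 15 were tested in eye. Of the 11 that are not members, limma called 6, 3 higher and 3 lower, which is 54.5% against 26.8% of all genes, and their median was -0.17 against 0.027 over all genes. The list was chosen with earlier results of these data known, so nothing is read from this share. Each of the 6 called genes kept its sign with arrays centred, with arrays centred and scaled, and with sighted RNA in Cy5 only or in Cy3 only. With Cy3 only, where the dye effect does not cancel, limma called 0 of the 15 core genes higher and 8 lower, members included.

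Of 4 activators on the list, Npas2 alone had a probe, and it rose in sighted eyes by 0.25 ± 0.20 (SD, n = 6, limma adjusted p 0.0485), close to the threshold. Of the repressors, Per2 and Cry1 went opposite ways. Cry1, a cryptochrome that acts with the Per proteins, rose by 0.37 ± 0.084 (SD, n = 6, limma adjusted p 0.0020) and was above 0 in 6 of 6 replicates. Its mean was 0.058 with sighted RNA in Cy3 only. Timeless, a replication fork gene named after a fly clock gene, fell by 0.52 ± 0.32 (SD, n = 6, limma adjusted p 0.0101). It is counted above among the core genes called lower. The paralogs of Per2 did not pass: Per1 had 0.0083 ± 0.22 and Per3 -0.22 ± 0.32 (SD, n = 6 each), with limma adjusted p of 0.957 and 0.189. Their signs turned on arrays of a single dye orientation.

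Among the nuclear receptors, Nr1d1 and Nr1d2, which encode the repressors that compete with Rora at ROR elements, did not pass in eye. Nr1d1 had -0.17 ± 0.23 and Nr1d2 had 0.26 ± 0.22 (SD, n = 6 each), with limma adjusted p of 0.206 and 0.0575. Both changed sign on arrays of a single dye orientation, which Rora did not. Among the PAR bZIP factors, Dbp fell with Hlf, at -0.42 ± 0.21 (SD, n = 6, limma adjusted p 0.00711), and was below 0 in 6 of 6 replicates. Tef had -0.18 ± 0.32 (SD, n = 6) and did not pass (limma adjusted p = 0.293). Nfil3, which encodes a repressor that binds the same D-box sequences, rose by 0.27 ± 0.14 (SD, n = 6, limma adjusted p 0.0197) and was above 0 in 6 of 6 replicates. Bhlhe40, the close paralog of Bhlhe41, went the other way: it had -0.52 ± 0.23 (SD, n = 6, limma adjusted p 0.00323) and was below 0 in 6 of 6 replicates.

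**Figure D4:**
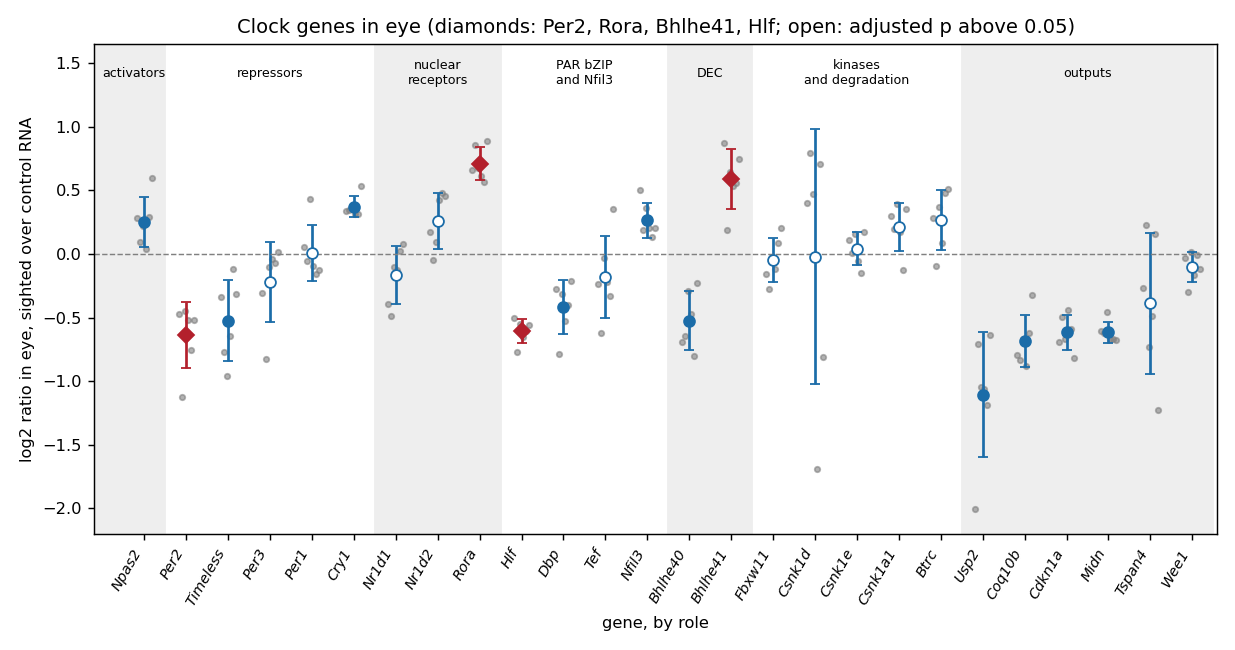
Log2 ratio of sighted over control RNA in eye (y axis) of the measured clock genes by role (x axis); large symbols with bars are the mean ± SD over 6 replicates, small grey points the replicates, diamonds the 4 members and open circles genes with a limma adjusted p above 0.05. Bhlhe41 (0.59) and Bhlhe40 (-0.52) lie on opposite sides of 0, as do Cry1 (0.37) and Per2 (-0.64).

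Of 6 output genes of the clock tested in eye, 4 fell and 0 rose, where 26.8% of all genes were called and 11% were lower. These genes too were listed with earlier results known, so nothing is read from the count. Usp2, a ubiquitin protease gene with strong daily rhythms in many organs, had -1.11 ± 0.49 (SD, n = 6), with replicate 1 at -2.01 and the other 5 between -1.19 and -0.64. Coq10b had -0.69, Cdkn1a, a cell cycle inhibitor gene, -0.62 and Midn -0.62. All 4 were below 0 in 6 of 6 replicates, and their limma adjusted p ran from 0.000154 to 0.00165. Wee1, at -0.10, and Tspan4, at -0.39, did not pass. Of 5 genes for kinases and protein degradation in the clock, limma called 0, with 2 at an unadjusted p under 0.05. Btrc, which encodes an F-box protein that marks Per proteins for breakdown, came nearest at 0.27 ± 0.24 (SD, n = 6, limma adjusted p 0.0599).

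In brain and heart none of these partners passed. The heart fit recovered only 2% of simulated log2 changes of 0.5, against 58% in the brain fit, so a heart partner that did not pass says little. In brain, 0 of the 10 other core genes tested passed limma and 0 had an unadjusted p under 0.05. Dbp had -0.11 ± 0.45, Bhlhe40 -0.069 ± 0.47, Nr1d1 0.040 ± 0.19 and Npas2 -0.042 ± 0.24 (SD, n = 6 each). The kinase gene Csnk1d had -0.27 ± 0.99 and the output gene Tspan4 0.37 ± 0.23 (SD, n = 6 each), the latter above 0 in 6 of 6 replicates with a limma adjusted p of 0.959. The brain mean of Tspan4 was 0.76 with sighted RNA in Cy5 only and -0.022 with Cy3 only. Of the 6 output genes in brain limma called 0, with 2 at an unadjusted p under 0.05, and of the 5 kinase and degradation genes 0, with 0 unadjusted. In heart, 0 of the 7 other core genes tested passed limma, and 1 had an unadjusted p under 0.05. This was Nr1d2, at 0.58 ± 0.11 (SD, n = 4), above 0 in 4 of 4 replicates, with a limma adjusted p of 0.57. Its heart mean was 1.11 with sighted RNA in Cy5 only and 0.0465 with Cy3 only. Nfil3 had -0.24 ± 0.14 (SD, n = 4), below 0 in 4 of 4 replicates, but 0.0035 with sighted RNA in Cy3 only. Npas2 had 0.0088 ± 0.22 (SD, n = 3), Csnk1a1 0.39 ± 0.47 (SD, n = 4) and Coq10b 0.71 ± 0.82 (SD, n = 3).

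Among the eye replicates, number 2, the lowest for Per2, Hlf and Bhlhe41, also had the lowest median over all genes, at -0.10, with the other eye replicates between -0.024 and 0.14. Rora was not low there, at 0.85 in a range of 0.57 to 0.89. The part of the replicate median in the member values was not tested.

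Genes outside the clock list were ranked by the root mean square distance of their log2 ratios from each member over the 12 eye and brain replicates, among 7677 named genes with a value in all. The nearest to Rora were Chd8, a chromatin remodeller gene, at a distance of 0.079, Kdm5b, a histone demethylase gene, at 0.11, and Phax at 0.12. Nearest to Hlf were Ltbp4 at 0.12, the chaperone partner gene Bag3 at 0.12 and the transcription factor gene Ets2 at 0.13. Nearest to Per2 were Laptm5, a gene of blood cell lysosomes, at 0.14, Ltbp4 at 0.16 and Plpp3 at 0.18. Bhlhe41 had Atg16l1 at 0.15, Baz2b at 0.16 and Fmn1 at 0.16. The median distance of all candidates lay between 0.49 and 0.55. Ltbp4, an extracellular matrix gene, stood near both lower members, with eye and brain means of -0.59 and -0.041.

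Markers of several cell types differed in the same eye arrays, where 26.8% of all genes were called. The marker lists, like the clock list, were chosen with earlier results of these data known. All 5 rod genes tested were called higher in sighted eyes, with replicate medians from 4.65 to 5.44, and all 3 cone genes, with a median of 0.33. The direction of the rod genes was fixed in advance, since they were used to set the sign. Of the inner retina markers 1 of 7 was higher and 2 lower, with a median of 0.023. All 5 lens genes were higher, with replicate medians from 0.0045 to 0.87. All 6 cornea genes were lower, with a median of -1.13, as were 5 of 7 immune genes, with a median of -0.33, and 3 of 3 red cell genes, with a median of -1.22. Of 7 skeletal muscle genes 6 were lower and 1, Pvalb, was higher at 0.45, with a list median of -0.94. Of the 5 brain neuron and glia genes 3 were lower and 1 higher, with a median of -0.31, and of 5 cardiomyocyte genes 2 were lower, with a median of -0.21. Of 10 immediate early genes, which are switched on within minutes of stimulation, 9 were lower and 1 higher, with a median of -0.49. The part of these cell types and of stimulation in the values of Per2, Hlf, Rora and Bhlhe41 was not tested.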

How the data were processed

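Eye, brain and heart RNA was made into cDNA and coupled to either dye, per the labels' protocols. The deposited values are log2 ratios of the 2 channels of an array. The sources used here do not name the scanner, the background correction or the normalization, and array medians were not all at 0. Of the 20794 probes, 12771 had 1 gene symbol, 0 had several and 8023 had none, and the symbols of all 12771 matched RefSeq (GRCm38.p6), with 0 changed. Each of the 8023 probes without a symbol was kept as a gene of its own in the fits. A repeated top value above 15 within an array (4170 values in all) was treated as missing.

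The sign was turned on arrays where Cy3 marked the sighted RNA, using 1 direction for all organs because the dye component of genes correlated between them (Spearman 0.431 for eye and brain, 0.394 for eye and heart, 0.578 for brain and heart, across genes, which are not independent replicates). Each probe's consecutive arrays of opposite dye were averaged, then the probes of a gene. This pairing reads the array numbers, and same-pair arrays correlated weakly after removal of the orientation means (mean r 0.0704 in eye, 0.00525 in brain, -0.0137 in heart). A gene could miss 1 replicate. All genes were fitted with limma 3.58.1 in R 4.3.3, two-sided, at a Benjamini-Hochberg adjusted p of 0.05, a fit tested on simulated data. There, most calls of the shared-spread fit of brain against heart were false, and fewer were with each organ's own spread, which is printed beside it.

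The members and lists were chosen with earlier results of these data known. The genes to name were the members, the clock genes that passed in any organ, the clock gene of smallest p for a role without a pass, and the 3 nearest genes of each member. Per1, Per3, Nr1d1, Nr1d2, Tef, Wee1 and Tspan4 in eye, and single replicate values given below, fall outside this rule and were chosen after their values were seen. Core clock genes are activators, repressors, nuclear receptors, PAR bZIP factors with Nfil3, and the Dec genes. Alternatives covered the unit of replication, centring, scaling, missing values, single probes, robust moderation, single dye orientations, a filter on spread and each replicate left out. The number of arrays limits the precision.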

Additional observations from a re-analysis of the deposited data

Results flagged for a closer look

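Among the clock genes of the list, 6 replicate values lay far from the others of their group, a gap that chance gives in about 1 in 20 groups, and 62 groups were examined. None of them belongs to Per2, Rora, Bhlhe41 or Hlf. Bhlhe41 in heart, with 3 replicates, had too few values to be examined, so its 2.00 in replicate 3 was not checked. In eye, Per1 had 0.43 in replicate 3 against values up to 0.058 in the others, Cry1 had 0.54 in replicate 6 against at most 0.37, and Midn had -0.46 in replicate 3 against at most -0.61. In brain, Per1 had -0.42 in replicate 3, Csnk1e -0.48 in replicate 5 and Coq10b -0.73 in replicate 5.

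Nfil3 was above 0 in 6 of 6 eye replicates and below 0 in 4 of 4 heart replicates, a difference of 0.50 that was not tested. Its heart mean was -0.48 with sighted RNA in Cy5 only and 0.0035 with Cy3 only. Nr1d2 differed between brain and heart by -0.59 (brain -0.010, heart 0.58) in the limma fit with a shared spread, at an adjusted p of 0.0299. It did not pass the t test with each organ's own spread (adjusted p = 0.560). With sighted RNA in Cy5 only, Nr1d2 read 0.36 in brain and 1.11 in heart, and with Cy3 only -0.38 and 0.0465.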

How the results depend on the processing

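The eye means of the 4 members kept their sign in each of the 18 alternatives. Rora moved to 1.12 with sighted RNA in Cy5 only, 0.30 with Cy3 only and 1.00 on its best measured probe. Bhlhe41 moved to 1.00 and 0.18, and Hlf to -0.40 and -0.81, with Cy5 only and Cy3 only. Per2 stayed within its SD. Eye calls were 2654 with every array on its own and 6580 with Cy5 only.

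In brain, where no member is called, small means changed sign: Bhlhe41 to 0.0033 with scaled arrays and 0.018 with Cy3 only, Rora to -0.46 with top values kept and -0.013 on its best measured probe, and Hlf to 0.057 with Cy3 only. Brain calls over all genes were 3 with every array on its own, 6 with a dye term, 4 with the pair as a random block, 2 with scaled arrays, 0 with top values kept, 2 where every replicate was needed, 736 with Cy5 only, 1327 with Cy3 only and 3 without the genes of most spread. One clock gene, 1 of 14, was called in brain with Cy5 only, where the dye effect does not cancel. In heart, Rora read 0.055 with every array on its own, with a dye term or with the random block, 0.0040 centred, 0.074 scaled, 0.26 with Cy3 only and 0.11 without array 7, a setting chosen after seeing the data. Rora brain minus heart was -0.45 with top values kept. Among the Rora probes in brain, only probe 19953 on array 12 lacked a value in the main setting. The -0.46 in brain and this -0.45 therefore rest on that single top value.

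Leaving out each replicate in turn gave -0.68 to -0.54 for Per2, 0.67 to 0.74 for Rora, 0.53 to 0.67 for Bhlhe41 and -0.63 to -0.57 for Hlf in eye, with 3301 to 4208 genes called. Of 15 core clock genes, 8 to 11 were called, against 10 in the main fit. This list includes the members, which were picked from the eye calls, so nothing is read from the count. In brain it gave -0.0033 to 0.042 for Rora, -0.048 to 0.045 for Bhlhe41, -0.076 to 0.020 for Hlf and 0 to 1 genes called. In heart it gave -0.11 to 0.15 for Rora, -0.025 to 0.20 for Hlf, -0.43 to -0.28 for Per2 and 0.11 to 1.08 for Bhlhe41. Brain minus heart ran from -0.13 to 0.13 for Rora. Apart from the top value behind the Rora means of -0.46 and -0.45, the cause of these changes was not tested.

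With the replicate number as a block, brain minus heart was 0.20 for Per2, 0.046 for Rora, -0.59 for Bhlhe41 and -0.10 for Hlf, and the block changed no call. Same-numbered replicates of brain and heart did not deviate together (mean r 0.00678). Nor did the arrays averaged as pairs within brain or heart (mean r 0.00525 and -0.0137). The check therefore cannot decide whether the number marks shared animals.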
